A study of Gallus gallus with 8 samples.

Results

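The 4 EDCH features of the deposited chicken count tables, EDCH1-EDC, EDCH2-EDC, EDCH3-EDC and EDCH4-EDC, were followed across cultured skin cells. They are all the features, out of 24902, whose name starts with EDCH and ends in -EDC. The study covered 8 libraries of primary cells: 3 skin equivalents, in which keratinocytes differentiate in a layered culture in 3 dimensions, 1 keratinocyte monolayer before confluence, 1 confluent fibroblast monolayer, and 3 confluent keratinocyte monolayers. The series was set up to compare monolayers with skin equivalents. The sources used here give no genotype, treatment, bird age or breed. They do not say whether libraries of 1 group came from separate birds either, so the spread that p-values are based on may be technical. Sample titles give the codes 20, 34 and 56 to replicates 1, 2 and 3 of both replicated groups and 20 to the subconfluent library, and their meaning is not stated.

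The epidermal differentiation complex, or EDC, is a gene cluster of birds, reptiles and mammals that codes for proteins of the outermost, cornified skin layer. As keratinocytes leave the basal layer they switch on these genes, and the proteins are cross-linked into a tough envelope as the cell dies. The EDCH genes are members of this cluster described in the chicken. Their name refers to cysteine and histidine motifs in the proteins, and cysteines are the residues that form disulfide bonds in cornified tissue.

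Gene counts per library ranged from 27329706 to 36728801. The 6 keratinocyte keratins that matched a deposited name (Krt5L1, Krt5L2, Krt5L3, Krt14L1, Krt14L2 and Krt15) summed to 20854 to 29561 CPM in skin equivalents, 40507 CPM in the subconfluent library, 5.33 CPM in fibroblasts and 10172 to 13880 CPM in confluent monolayers, where CPM are counts scaled by TMM to a common library size over all 8 libraries. In fibroblasts 2 of these 6 were at 0 counts. The 4 keratins of simple epithelia (Krt7, Krt8, Krt18 and Krt19) summed to 78.3 to 102 CPM in skin equivalents, 1678 CPM in the subconfluent library, 24.4 CPM in fibroblasts and 3116 to 5212 CPM in confluent monolayers. The part of these differences in the results on EDCH features was not tested. Of the markers listed for fibroblasts, melanocytes, immune cells and endothelium, 0 carry a name in the tables, so the identity of the fibroblasts was checked only by the low keratins.

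All 4 EDCH names have 1 match each in the NCBI RefSeq gene table of assembly GRCg7b, EDCH3 as a symbol and EDCH1, EDCH2 and EDCH4 as synonyms. In that table EDCH4, EDCH3 and EDCH2 stand next to each other with 0 genes in between. EDCH1 lies apart, with 9 genes between it and EDCH2, and its neighbour on the far side is an S100 gene. The table also lists an EDCH5, which lies among these 9 genes. No feature is named EDCH5-EDC, so this gene is not analysed here. No source used here gives the build used for counting, so the table serves only for names and neighbours.

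The first comparison asked how EDCH transcripts in skin equivalents differed from those in confluent monolayers. All 4 were among the strongest rises of the transcriptome: in skin equivalents they had 127 to 3579 CPM, and in monolayers 0.229 to 1.25 CPM. EDCH3-EDC and EDCH4-EDC rose by about 11 on the log2 scale and EDCH1-EDC and EDCH2-EDC by about 9. In bulk samples such as these, more cells of a type and more RNA per cell cannot be told apart.

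EDCH1-EDC had 437, 129 and 127 CPM in skin equivalents 1, 2 and 3, against 0.673, 0.440 and 0.229 CPM in confluent monolayers 1, 2 and 3. EDCH2-EDC had 544, 149.8 and 137 CPM in skin equivalents 1 to 3, against 0.976, 0.410 and 0.286 CPM in monolayers 1 to 3. In both features the lowest skin equivalent was above the highest monolayer, by 189 times for EDCH1-EDC and 141 times for EDCH2-EDC. Means were 231 ± 178 CPM in skin equivalents and 0.447 ± 0.222 CPM in monolayers for EDCH1-EDC (SD, n = 3 each). For EDCH2-EDC they were 277 ± 231 CPM in skin equivalents and 0.558 ± 0.368 CPM in monolayers. The log2 fold changes were 9.02 ± 0.79 (standard error) for EDCH1-EDC, with an adjusted p of 0.000239 in edgeR's quasi-likelihood test, and 8.97 ± 0.88 for EDCH2-EDC, with an adjusted p of 0.000362 in the same test. The fitted fold changes of EDCH1-EDC and EDCH2-EDC, which are not neighbours in the RefSeq order, were thus the nearest of any pair in the family. Next came the neighbours EDCH3-EDC and EDCH4-EDC, at 11.10 ± 0.75 and 10.80 ± 0.92. The gap within each of these pairs was smaller than the standard errors, so their order is not settled.

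EDCH3-EDC had 1263, 499 and 428 CPM in skin equivalents 1 to 3, against 0.539, 0.234 and 0.229 CPM in monolayers 1 to 3. EDCH4-EDC had 3579, 814 and 848 CPM in skin equivalents 1 to 3, against 1.25, 0.674 and 1.03 CPM in monolayers 1 to 3. Here too the groups did not overlap, and the lowest skin equivalent exceeded the highest monolayer 794 times for EDCH3-EDC and 653 times for EDCH4-EDC. EDCH3-EDC averaged 729.9 ± 463 CPM in skin equivalents and 0.334 ± 0.177 CPM in monolayers (SD, n = 3 each), a log2 fold change of 11.10 ± 0.75 (edgeR adjusted p = 9.59e-05). EDCH4-EDC averaged 1747 ± 1587 CPM in skin equivalents and 0.984 ± 0.289 CPM in monolayers, a log2 fold change of 10.80 ± 0.92 (edgeR adjusted p = 0.000218). Among the 13230 features tested, the 4 stood at places 36 (EDCH3-EDC), 38 (EDCH4-EDC), 62 (EDCH1-EDC) and 64 (EDCH2-EDC) in order of the rise.

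**Figure D1:**
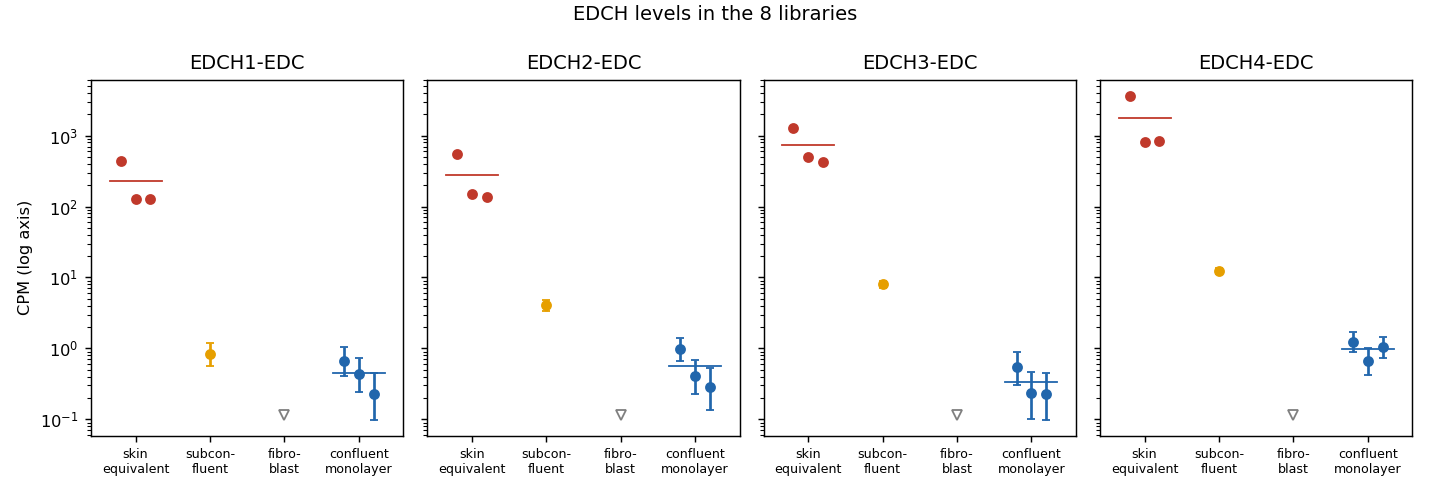
CPM of each EDCH feature (log axis) in the 8 libraries, by culture group; points are libraries with 95% Poisson intervals of the count, horizontal lines are means of the groups with 3 libraries, and open triangles mark the limit of 0.116 CPM (3 counts) for the fibroblast library, which had 0 counts. Skin equivalents lie above all other libraries in every panel, skin equivalent 1 (left point) is the highest, and the subconfluent library stands clear of the monolayers for EDCH2-EDC, EDCH3-EDC and EDCH4-EDC, while for EDCH1-EDC its interval overlaps those of monolayers 1 and 2.

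All 4 members were called as higher and 0 as lower, where 25.9% of all tested features were called as higher and 23.6% as lower, and all 4 had no overlap between groups, where 32.4% of all tested features lay with every skin equivalent above every monolayer. The expression filter, at least 0.353 CPM in 3 libraries, was met by skin equivalents alone for EDCH1-EDC, EDCH2-EDC and EDCH3-EDC, of which 2, 2 and 1 monolayers reached it, so for these only a rise could be called. EDCH4-EDC reached it in all 3 monolayers. Counting error enters the folds mainly through the monolayers. Their 3 libraries together held 43 counts of EDCH1-EDC (95% Poisson interval 31.1 to 57.9), 53 of EDCH2-EDC (39.7 to 69.3), 32 of EDCH3-EDC (21.9 to 45.2) and 96 of EDCH4-EDC (77.8 to 117). The standard errors also hold the spread among libraries, and were 0.79, 0.88, 0.75 and 0.92 for EDCH1-EDC to EDCH4-EDC. Without skin equivalent 1 they were 0.43, 0.52, 0.46 and 0.38, while they were larger without any 1 of the monolayers.

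Skin equivalent 1 stood apart from the other two in every EDCH feature. Its CPM exceeded those of skin equivalents 2 and 3 by 3.39 and 3.43 times for EDCH1-EDC, 3.63 and 3.96 times for EDCH2-EDC, 2.53 and 2.95 times for EDCH3-EDC, and 4.40 and 4.22 times for EDCH4-EDC. Skin equivalents 2 and 3 were within 1.17 times of each other. Of the 23 other tested names ending in -EDC, 11 (47.8%) were likewise at least 2 times higher in skin equivalent 1 than in both others, while 4.31% of all tested features were. Without skin equivalent 1 the log2 fold changes were 8.17 for EDCH1-EDC, 8.03 for EDCH2-EDC, 10.45 for EDCH3-EDC and 9.72 for EDCH4-EDC, and all 4 were still called, with edgeR adjusted p-values between 0.000272 and 0.000533. Monolayer 1, which carries the same title code 20, was likewise the highest monolayer for all 4 members. Among all tested features monolayer 1 was the highest monolayer in 5629 of 13230 cases and skin equivalent 1 the highest skin equivalent in 4987. The title of skin equivalent 1 carries a number marked d of 7, those of the monolayers 8, and those of skin equivalents 2 and 3 none, so a difference in time of culture cannot be told apart from one in replicate. Skin equivalent 1 and monolayer 1 are also the only libraries of their groups without the letters wo. Title code 20 and the lack of wo thus cannot be told apart. Among only the 4 libraries with wo, the log2 fold changes were 8.47, 8.58, 10.85 and 9.82 for EDCH1-EDC to EDCH4-EDC.

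As a share of all gene counts, the 4 members together made up 0.528%, 0.149% and 0.144% in skin equivalents 1 to 3, against 0.000365%, 0.000200% and 0.000203% in monolayers 1 to 3. Their mean share was 0.274% ± 0.220 in skin equivalents and 0.000256% ± 9.45e-05 in monolayers (SD, n = 3 each), and that of the skin equivalents was 0.147% without skin equivalent 1. Of the counts of all names ending in -EDC, EDCH made up 25.9%, 21.9% and 14.02% in skin equivalents 1 to 3, against 0.427%, 0.406% and 0.640% in monolayers 1 to 3. The EDCH shares of skin equivalents and monolayers did not overlap by either measure.

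Whether the members changed unequally was read from ratios between 2 members within a library, which do not depend on scaling between libraries. EDCH3-EDC gained on EDCH1-EDC: the log2 ratio of their counts was 1.53, 1.95 and 1.75 in skin equivalents 1 to 3, against -0.31, -0.87 and 0.00 in monolayers 1 to 3. EDCH3-EDC also gained on EDCH2-EDC, with log2 ratios of 1.22, 1.74 and 1.64 in skin equivalents 1 to 3, against -0.84, -0.77 and -0.30 in monolayers 1 to 3. In both pairs the groups did not overlap, and the ratio was higher in skin equivalents by 2.14 and 2.17 on the log2 scale. The ratios of EDCH4-EDC to EDCH1-EDC and to EDCH2-EDC did not overlap either and were higher by 1.62 and 1.65. Each of these 4 differences had p = 0.1 in a two-sided exact permutation test, the smallest p that 3 against 3 libraries allow, and 0.15 after Benjamini-Hochberg adjustment over the 6 pairs, so the design could not bring them past 0.05. For EDCH2-EDC to EDCH1-EDC the ratios overlapped, with a difference of -0.03 (exact permutation p = 0.9, adjusted p = 0.9). For EDCH4-EDC to EDCH3-EDC they overlapped as well, with a difference of -0.52 (exact permutation p = 0.3, adjusted p = 0.36). Genes were not compared in level with each other, since transcript lengths are not in the tables.

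In make-up terms, EDCH1-EDC held 7.51%, 8.10% and 8.27% of the EDCH counts in skin equivalents 1 to 3, 3.28% in the subconfluent library (95% Wilson interval 2.32% to 4.62%), and 19.6%, 25.0% and 12.9% in monolayers 1 to 3. EDCH3-EDC held 21.7%, 31.4% and 27.8% in skin equivalents 1 to 3, 31.8% in the subconfluent library (28.9% to 34.8%), and 15.7%, 13.3% and 12.9% in monolayers 1 to 3. The share of EDCH1-EDC was thus lowest in the subconfluent library and highest in the monolayers, while that of EDCH3-EDC in the subconfluent library was next to the highest skin equivalent. The monolayer shares rest on 102, 60 and 62 EDCH counts in monolayers 1 to 3. Intervals of counts and shares cover counting error alone. The labelled protocol names no molecular identifiers, so copies of the same fragment may be counted more than once, and the intervals may be too narrow.

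**Figure D2:**
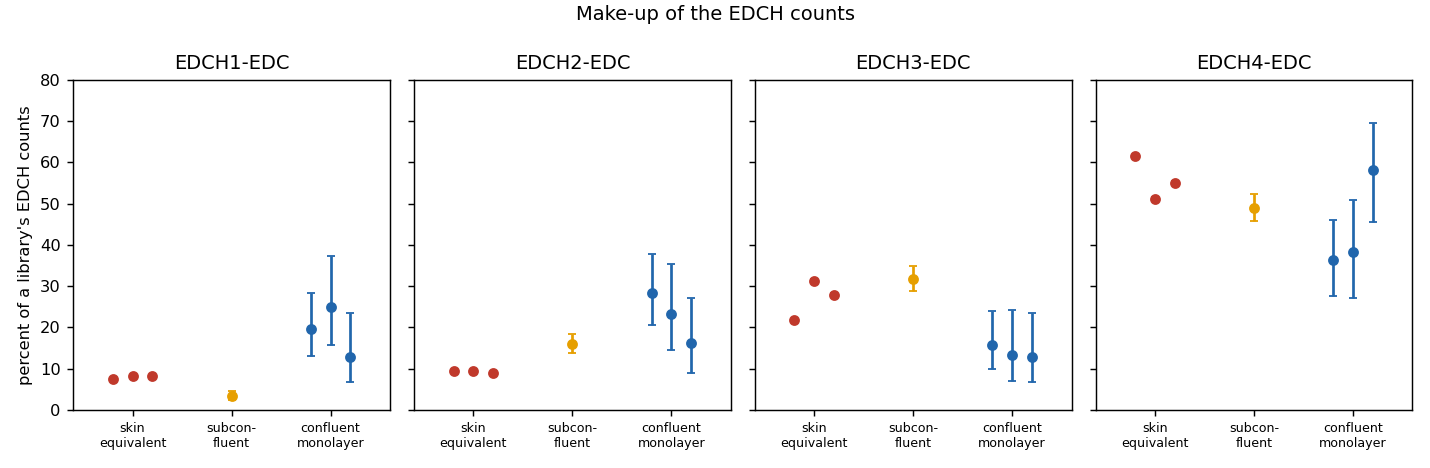
Share of each EDCH feature in a library's EDCH counts, in percent, for skin equivalents, the subconfluent library and confluent monolayers; points are libraries and bars are 95% Wilson intervals, which are smaller than the points in skin equivalents. EDCH1-EDC and EDCH2-EDC take smaller shares in skin equivalents than in monolayers and EDCH3-EDC takes larger shares, all without overlap of libraries, and the shares of EDCH4-EDC overlap.

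The second comparison set the subconfluent keratinocytes against the confluent monolayers. This library, taken before confluence, held more EDCH RNA than the monolayers, and the difference varied among members: largest for EDCH3-EDC, next for EDCH4-EDC, smaller for EDCH2-EDC and smallest for EDCH1-EDC. With 1 subconfluent library the difference has no replicate check, and the fit of all 8 libraries takes it to vary like the replicated groups.

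EDCH3-EDC had 8.07 CPM (300 counts) in the subconfluent library, against 0.539, 0.234 and 0.229 CPM in monolayers 1 to 3. It was the member that passed the test, with a log2 fold change of 4.60 ± 0.67 (edgeR adjusted p = 0.0390) and place 18 among the rises of 15019 features. EDCH4-EDC had 12.5 CPM (463 counts) in the subconfluent library, against 1.25, 0.674 and 1.03 CPM in monolayers 1 to 3. Its log2 fold change of 3.66 ± 0.80 did not pass (edgeR adjusted p = 0.0660). EDCH2-EDC had 4.04 CPM (150 counts) in the subconfluent library, against 0.976, 0.410 and 0.286 CPM in monolayers 1 to 3, and its log2 fold change of 2.87 ± 0.86 did not pass (edgeR adjusted p = 0.111). The subconfluent level exceeded the highest monolayer 15.0 times for EDCH3-EDC, about 10 times for EDCH4-EDC and 4.13 times for EDCH2-EDC. For EDCH1-EDC the subconfluent library had 0.834 CPM (31 counts, 95% Poisson interval 0.567 to 1.18 CPM), against 0.673, 0.440 and 0.229 CPM in monolayers 1 to 3. The interval holds monolayer 1 but neither monolayer 2 nor monolayer 3, and the log2 fold change was 0.91 ± 0.90 (edgeR adjusted p = 0.568).

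Thus 1 of 4 members was called as higher and 0 as lower, where 0.606% of all tested features were called as higher and 0.726% as lower. All 4 lay above every monolayer, as did 37.8% of all tested features. The call of EDCH3-EDC was lost without monolayer 2 (adjusted p = 0.116), without monolayer 3 (0.173), without skin equivalent 2 (0.0571) and without skin equivalent 3 (0.0905) in edgeR, and with limma-voom (0.0522), and EDCH4-EDC was called without skin equivalent 1 (edgeR adjusted p = 0.0356). DESeq2 called EDCH2-EDC, EDCH3-EDC and EDCH4-EDC as higher, with adjusted p-values of 0.0209, 2.77e-07 and 8.59e-04. Within the library, the log2 ratio to EDCH1-EDC was 3.25 for EDCH3-EDC, 3.88 for EDCH4-EDC and 2.26 for EDCH2-EDC, each above all 3 monolayers. The subconfluent library shares the title code 20 with monolayer 1 and skin equivalent 1, both the highest of their groups, and like them lacks the letters wo. With the title code as a block in a fit of the 7 keratinocyte libraries, an alternative chosen after seeing the data, the log2 fold changes were 3.79 for EDCH3-EDC (edgeR adjusted p = 0.0748), 2.67 for EDCH4-EDC (0.0987), 1.87 for EDCH2-EDC (0.0819) and -0.00053 for EDCH1-EDC (0.999).

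**Figure D3:**
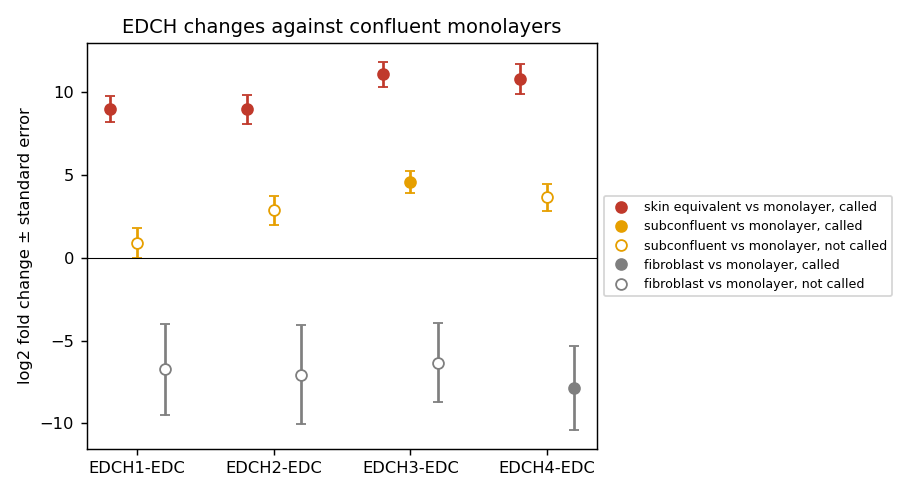
Log2 fold change ± standard error of each EDCH feature against confluent monolayers, for skin equivalents (left of each trio), the subconfluent library (middle) and fibroblasts (right); filled points had an edgeR adjusted p under 0.05 and open points did not. Skin equivalents are at 8.97 to 11.10, the subconfluent library at 0.91 to 4.60, and the fitted values of fibroblasts, which had 0 counts, depend on the count the tool adds.

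Skin equivalents remained far above the subconfluent library. Their mean exceeded the subconfluent level 277 times for EDCH1-EDC, 68.6 times for EDCH2-EDC, 90.4 times for EDCH3-EDC and 140.2 times for EDCH4-EDC, values given without a test. Without skin equivalent 1 these ratios were 154, 35.6, 57.4 and 66.7 for EDCH1-EDC to EDCH4-EDC. The lowest skin equivalent was above the subconfluent library 153 times for EDCH1-EDC, 34.1 times for EDCH2-EDC, 53.0 times for EDCH3-EDC and 65.3 times for EDCH4-EDC.

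The third comparison set fibroblasts, the main cells of the dermis, against confluent keratinocytes. The fibroblast library had 0 counts of EDCH1-EDC, EDCH2-EDC, EDCH3-EDC and EDCH4-EDC. The limit used, 3 counts, corresponds to 0.116 CPM and to 1.04e-05% of gene counts. The 95% Poisson interval of 0 counts reaches somewhat higher, to 0.143 CPM. The 3-count limit was 8.48-fold lower than the monolayer mean for EDCH4-EDC, 4.81-fold lower for EDCH2-EDC, 3.86-fold lower for EDCH1-EDC and 2.88-fold lower for EDCH3-EDC. These folds take the monolayer means as exact. EDCH4-EDC passed the test (edgeR adjusted p = 0.0395), and the others did not, with adjusted p-values of 0.0642 for EDCH3-EDC, 0.0845 for EDCH1-EDC and 0.0916 for EDCH2-EDC in edgeR. Thus 1 of 4 was called as lower and 0 as higher, where 23.0% of all tested features were called as lower and 21.5% as higher. EDCH4-EDC no longer passed without monolayer 1 (edgeR adjusted p = 0.0791), without monolayer 3 (0.0632) and with limma-voom (0.142), while all 4 were called without skin equivalent 1 in edgeR and with DESeq2. With 1 fibroblast library and 8 to 37 counts per member in each monolayer, the depth says little on the size of the difference. In this library 2.53% of fragments were ambiguous between features, against 0.485% to 0.571% in monolayers 1 to 3, and the part of this in the values was not tested.

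In order, EDCH2-EDC, EDCH3-EDC and EDCH4-EDC were highest in skin equivalents, then in the subconfluent library, then in confluent monolayers, and at 0 counts in fibroblasts. For EDCH1-EDC the subconfluent library had the higher level too, but next to monolayer 1 the difference was within counting error. The 3 comparisons share the monolayers, so their values are not independent of each other.

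The other features whose names end in -EDC served to place the family. That ending need not mark every gene of the cluster: EDCH5 and EDSC lie between EDCH2 and EDCH1 in the RefSeq order and have no such feature. Of 31 further names ending in -EDC, 23 passed the expression filter and were tested between skin equivalents and monolayers. Of these, 20 were called as higher and 1 as lower, where 25.9% of all tested features were called as higher and 23.6% as lower. The median log2 fold change of the 23 was 7.80, against 9.91 for the EDCH features and 0.08 for all tested features. Names that met the filter through skin equivalents alone could only be called as higher. Without a filter on low counts, 21 of 31 were called as higher and 1 as lower. Their median log2 fold change was then 5.05, against 9.90 for the EDCH features. EDYM1-EDC and EDGH-EDC had only 0 and 1 counts in all monolayers, so their fitted folds depend on the count the tool adds. These 2 were then held at their levels over the floor of 3 counts per library, which are lower bounds. At least 2 of the 23 (LOR1-EDC and LOR2-EDC) then had a larger rise than every EDCH feature. At least 7 had a larger one than EDCH2-EDC, the lowest, and the median of the 23 was again 7.80. As fitted, 4 had a larger rise than every EDCH feature and 8 a larger one than EDCH2-EDC. LOR1-EDC, named after the cornified envelope protein loricrin, had a log2 fold change of 13.19 ± 0.44 (edgeR adjusted p = 1.84e-05). The rises of LOR1-EDC and LOR2-EDC themselves rest on only 10 and 5 counts over all monolayers. EDYM1-EDC had 29.0, 72.8 and 18.0 CPM in skin equivalents 1 to 3 and was at least 436-fold higher than in monolayers against that floor. CRNN-EDC, named after cornulin, was called in the direction opposite to the EDCH features, with 0.192, 0.117 and 0.153 CPM in skin equivalents 1 to 3 against 1.11, 0.645 and 0.372 CPM in monolayers 1 to 3 (log2 fold change -2.17 ± 0.58, edgeR adjusted p = 0.0176). These skin equivalent values lie at or near the floor of 3 counts, 0.115 to 0.117 CPM there, and the monolayers together held 68 counts. The CRNN-EDC call was lost in edgeR without skin equivalent 2 and without skin equivalent 3. Against the same monolayers CRNN-EDC had a higher level in the lone subconfluent library, at 6.05 CPM, as the EDCH features had. That rise was not called in edgeR, and of the EDCH features only EDCH3-EDC was called there. In the subconfluent library 0 of 27 tested other -EDC names were called in edgeR, 3 were called as higher in DESeq2 and 1 in limma-voom, and their median log2 fold change was 1.22, against 3.26 for the EDCH features and 0.00 for all tested features. Of these 27, 0 had a larger subconfluent rise than every EDCH feature and 15 a larger one than EDCH1-EDC, the lowest. The fitted change was negative for 6, none of them called in edgeR. Among these 6, EDGH-EDC and EDMTF1-EDC had 0 CPM in the subconfluent library against a mean of 0.01 CPM in monolayers. EDYM1-EDC and EDMTF3-EDC had 0 CPM in both groups, and enter the median with a fitted value of 0. EDQM3-EDC (log2 fold change 3.62 ± 0.72) and CRNN-EDC (3.09 ± 0.62) lay between EDCH2-EDC and EDCH4-EDC, so rises of this size were not particular to the EDCH features. In fibroblasts 9 of 27 were called as lower and 0 as higher, where 23.0% of all tested features were called as lower and 21.5% as higher. Names at 0 CPM in monolayers, such as EDYM1-EDC and EDMTF3-EDC, could not be called as lower.

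**Figure D4:**
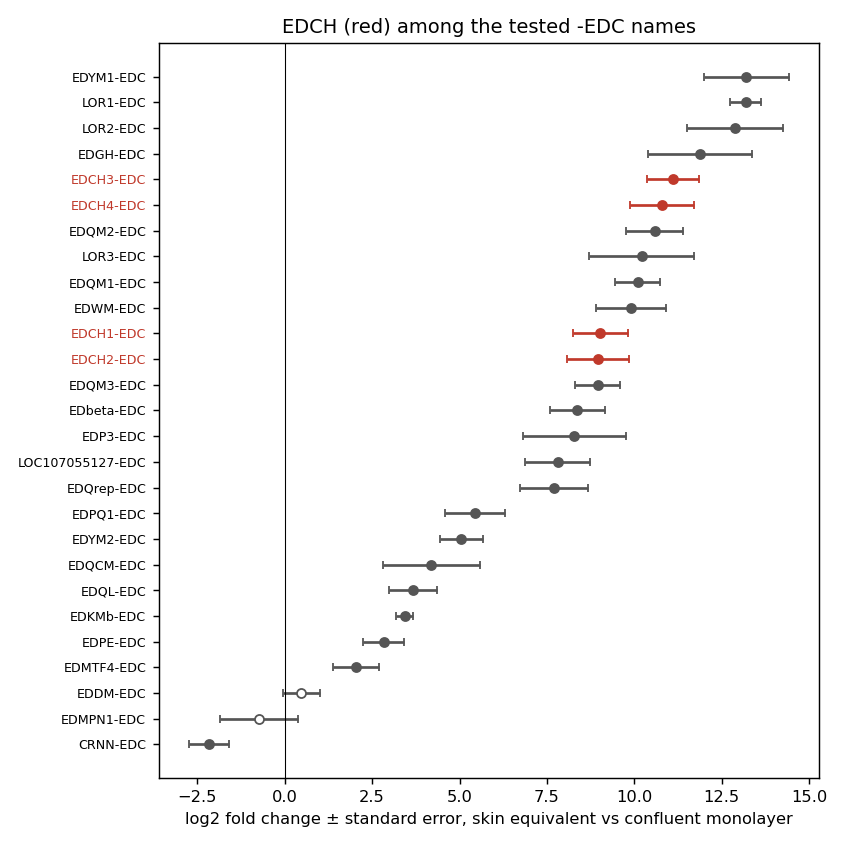
Log2 fold change ± standard error between skin equivalents and confluent monolayers for the 4 EDCH features (red) and the 23 other tested names ending in -EDC (grey), in order of the change; filled points had an edgeR adjusted p under 0.05. The EDCH features lie in the upper part, below LOR1-EDC and LOR2-EDC. The places of LOR1-EDC and LOR2-EDC rest on 10 and 5 monolayer counts. The places of EDYM1-EDC and EDGH-EDC rest on 0 and 1 monolayer counts and depend on the count the tool adds, and 2 names, EDDM-EDC and EDMPN1-EDC, were not called.

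Of the genes between EDCH2 and EDCH1 in the RefSeq order, 6 features had a matching name, 5 were tested, and 4 rose, where 25.9% of all tested features did. The name EDQM1 is shared by neighbouring genes there, so features and genes do not match singly. EDWM-EDC had 2259, 574 and 567 CPM in skin equivalents 1 to 3, against 2.19, 0.791 and 0.573 CPM in monolayers 1 to 3, a log2 fold change of 9.91 ± 1.00 (edgeR adjusted p = 0.000393). EDKMb-EDC, which adjoins EDCH1 there, rose by 3.43 ± 0.25 on the log2 scale (edgeR adjusted p = 0.000117) and was already at 21.0, 18.6 and 20.9 CPM in monolayers 1 to 3. EDMPN1-EDC had 35.6, 5.59 and 3.07 CPM in skin equivalents 1 to 3, against 56.3, 11.8 and 5.38 CPM in monolayers 1 to 3, a log2 fold change of -0.73 ± 1.10 that did not pass the test (edgeR adjusted p = 0.608). EDQM3-EDC, which adjoins EDCH4, rose by 8.95 ± 0.64 (edgeR adjusted p = 0.000112).

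The pattern over the 8 libraries was compared between features as the root mean square difference of log2 CPM profiles, each centred on its own mean. This is a description with no test, since libraries of 1 group share a kind of culture. The EDCH features had 0 counts in fibroblasts, so their log2 CPM there come from the added prior count. Their centred fibroblast values, -7.52 to -9.51, thus follow from their levels in the other libraries. The nearest feature to EDCH3-EDC out of 15018 was EDCH4-EDC, and the nearest to EDCH4-EDC was EDCH3-EDC, at a difference of 0.60. The nearest to EDCH2-EDC was EDCH1-EDC, at 0.70, while the nearest to EDCH1-EDC was EDQM1-EDC, at 0.59, followed by EDCH2-EDC. EDWM-EDC was among the 3 nearest named features of every member, at 0.61 to EDCH4-EDC, 0.73 to EDCH2-EDC, 0.83 to EDCH3-EDC and 0.84 to EDCH1-EDC. EDbeta-EDC was the third nearest named feature to EDCH2-EDC (0.81) and EDQM1-EDC to EDCH3-EDC (0.98). The median difference over all features was 4.96 to 5.86, depending on the member. Among the members alone, the closest pairs were thus EDCH1-EDC with EDCH2-EDC and EDCH3-EDC with EDCH4-EDC. Between members of different pairs the difference was 0.99 to 1.32. The ratios within these pairs were also those that overlapped between skin equivalents and monolayers, and both readings rest on the same libraries. In the subconfluent library the pairs did not hold together in this way. There the log2 ratio of EDCH2-EDC to EDCH1-EDC was 2.26, above every monolayer. That of EDCH4-EDC to EDCH3-EDC was 0.63, below every monolayer.

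**Figure D5:**
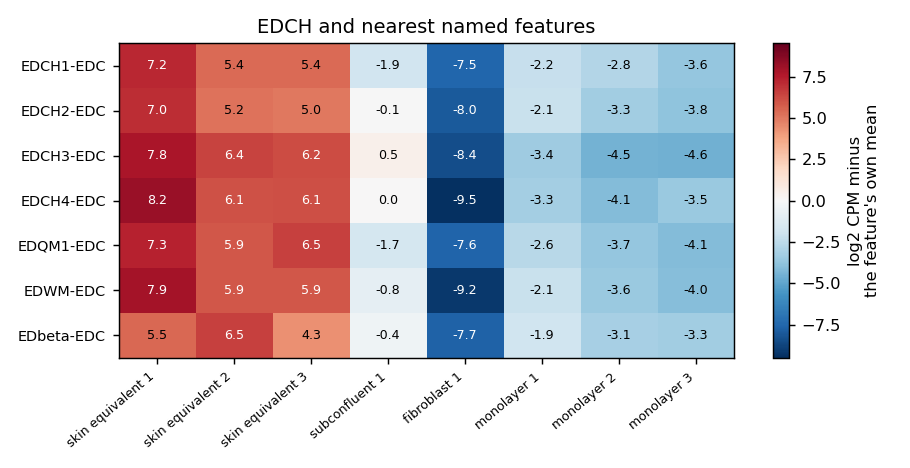
Log2 CPM minus the feature's own mean over the 8 libraries, for the 4 EDCH features and their nearest named features EDQM1-EDC, EDWM-EDC and EDbeta-EDC; red is above and blue below the mean, and the number stands in each cell. EDCH2-EDC, EDCH3-EDC and EDCH4-EDC are near their mean in the subconfluent library (-0.05, 0.48 and 0.04), EDCH1-EDC is below it (-1.85), and skin equivalent 1 has the highest value of each EDCH feature. The fibroblast values of the EDCH features come from the added prior count. They enter each feature's mean, so how near the subconfluent values lie to that mean depends on this count.

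EDCH genes are a family of related copies. Fragments that fit several places stand in a row of their own in the tables, 3.26% to 8.66% of a library, and are not analysed here, so reads shared between near-identical stretches of EDCH genes would be missing from the counts. Such fragments made up 7.06%, 8.66% and 8.37% in skin equivalents 1 to 3, against 4.55%, 4.59% and 4.45% in monolayers 1 to 3. In the subconfluent library they made up 5.46% and in fibroblasts 3.26%. The part of this difference in the folds and ratios was not tested. The sources used here do not state whether strand was used in counting, so overlapping or antisense transcripts cannot be told apart from the EDCH genes.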

How the data were processed

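RNA of 8 libraries was selected by poly(A), made into libraries with a strand-preserving kit and sequenced in paired reads, per the labels. The authors deposited whole-number counts per feature without normalisation, with 24902 features and 4 rows for fragments given to no gene, which hold 28.7% to 35.5% of a library and stayed out of library sizes and tests. DESeq2 1.22.2, RSEM, STAR 2.6.1a and bcl2fastq 2.19.1.403 stand in the submitters' processing notes without a stated role, and no source used here gives the build or annotation.

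Groups were taken from the sample titles. Comparisons used edgeR 4.0.16 (quasi-likelihood, robust) in R 4.3.3 with TMM scaling, the default expression filter and Benjamini-Hochberg adjustment over all features tested, at 0.05: skin equivalents against monolayers in 6 libraries, and the lone libraries against monolayers in all 8. Standard errors derive from the log2 fold change and the test statistic. CPM were scaled over 8 libraries, so they can differ slightly from fits of 6. Ratios between members added 0.5 counts and were tested by exact permutation in scipy 1.17.1, and log2 CPM profiles used a prior count of 0.5. Alternatives used DESeq2 1.42.0, limma 3.58.1, other scaling and filters, and left-out libraries. The fits were checked on simulated data with smaller changes and less spread than the EDCH features showed in skin equivalents. That check therefore does not cover changes of their size.

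Named features are the EDCH features, the 3 named features of nearest pattern to each, the other -EDC names with the 2 largest rises and falls (1 fell), and those called opposite to EDCH. Neighbours of EDCH genes were chosen after their values were seen. Members and lists were chosen with earlier results of these data known. Sequences are not used here.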

Additional observations from a re-analysis of the deposited data

How the results depend on the processing

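The rise in skin equivalents was called for all 4 members under all 16 alternatives, with log2 fold changes of 8.17 to 9.32 for EDCH1-EDC, 8.03 to 9.51 for EDCH2-EDC, 10.45 to 11.49 for EDCH3-EDC and 9.72 to 11.14 for EDCH4-EDC. For EDCH4-EDC it was 9.82 among only the 4 libraries with the letters wo in their titles. Over all tested features the replicate numbers showed no clear pairing. Same-numbered libraries deviated from their group means with correlations of -0.08, -0.16 and 0.16, and not every library correlated best with its own number. With so few libraries per group these correlations cannot settle whether the libraries are paired. With the replicate block the log2 fold changes were 8.88, 8.85, 11.03 and 10.47 for EDCH1-EDC to EDCH4-EDC, and 3097 features rose and 2894 fell, against 3427 and 3122 without it. In the same order the standard errors were 0.35, 0.27, 0.28 and 0.55 with the block, against 0.79, 0.88, 0.75 and 0.92 without it. Scaling by total count moved the median of all features from 0.08 to -0.18.

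The difference between the ratio of EDCH2-EDC to EDCH1-EDC in skin equivalents and monolayers turned positive with a prior of 3 counts (0.0012), and was -0.20 to 0.11 with 1 library left out. The direction of the other 5 ratios did not change under the alternatives.

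The subconfluent calls depended on the setting, and the cause was not tested. With DESeq2 the log2 fold changes of EDCH2-EDC and EDCH4-EDC were 2.79 and 3.58, and 3 members were called. EDCH3-EDC was at 4.66 with limma-voom, 4.56 in the fit of the lone library and monolayers only and 3.79 with the title code as a block, each with 0 members called, and EDCH1-EDC was at -0.00053 with that block. With 1 library left out EDCH3-EDC was at 4.34 to 4.98 and EDCH4-EDC at 3.39 to 3.75, and 0 to 2 members were called. Against 91 features called as higher and 109 as lower, DESeq2 gave 680 and 1230, limma-voom 155 and 208, and the fits of the lone library with monolayers and with the title code block 0 and 0 (1566 and 1771, and 1888 and 1673, at an unadjusted p under 0.05). Features called as higher were 39 with DESeq2 size factors and 34 with total counts. With 1 library left out 0 to 270 were called as higher and 0 to 413 as lower.

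In fibroblasts the fitted log2 fold changes depend on the count the tool adds. EDCH1-EDC, EDCH2-EDC and EDCH3-EDC were called with DESeq2 (-5.86, -6.17 and -5.43, 4 members in all), EDCH1-EDC in the fit of the lone library and monolayers only (-6.81, 2 members), and EDCH3-EDC with total counts (-6.45, 2 members). EDCH4-EDC was not called with limma-voom (-5.64, 0 members). The cause was not tested. With 1 library left out the values were -7.05 to -6.40, -7.35 to -6.47, -6.51 to -5.89 and -8.09 to -7.75 for EDCH1-EDC to EDCH4-EDC, and 0 to 4 were called.

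Among patterns, 1 of the 3 named features nearest to EDCH4-EDC stayed so over only the 6 libraries of skin equivalents and monolayers. Depth limits the monolayer and fibroblast values, not those of skin equivalents.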
